A study of Mus musculus with 12 samples.

Results

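The 8 genes described here lie outside the enzymes of lipid metabolism and had a liver signal that differed with diet. Cox6b2, Treh, Nt5e, Rad51b and Pdzrn3 were higher on a high-fat diet. Reck, Rnd2 and Kcnh3 were lower. For Kcnh3 this held in both genotypes only on 2 of its 3 probe sets, both made from 1 expressed sequence tag. The probe set for its RefSeq mRNA had a difference of -0.06 (SE 0.0934) averaged over genotypes. Whether the pair from the tag measures Kcnh3 transcripts was not tested. Over both genotypes, Nt5e and Rad51b separated the diets only on their probe set with the highest mean signal. The 8 genes are measured by all probe sets annotated to 1 of these symbols and to no other gene, 13 of the 28898 probe sets with a single gene. These stand for 8 of 17097 genes, 8 probe sets for the 5 higher genes and 5 for the 3 lower ones. The genes were chosen on the diet differences of these same arrays, so those differences are given as a description and not as a test.

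The livers came from male mice in 4 groups with 3 liver extracts each, and an extract is called a liver throughout. Pml knockout mice were fed the high-fat or the low-fat diet, and so were wild-type mice. Pml codes for the protein that builds PML nuclear bodies, and the labels name the knockout without its allele or the strain. The high-fat diet held 60% of its calories as fat and the low-fat diet 10%, both for 20 weeks. Livers were taken after 8 h without food, and 3 extracts were measured of the 8 mice in a group. RNA of each extract was hybridised to its own Affymetrix array. The values are log2 signals of RMA, a method that corrects background and brings arrays to a common distribution. Labels do not state outright that each extract is from its own mouse, so errors measure the spread between extracts, and 3 arrays a group limit the precision.

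Pml itself served as a check of the labels, with 3.04 to 3.82 in the 6 knockout livers and 4.92 to 5.40 in the 6 wild-type livers on its brighter probe set. Hepatocyte markers averaged 12.1 to 12.4 in all 12 livers. Markers of Kupffer cells and macrophages averaged 4.88 in knockout low-fat replicate 2 and 5.43 in knockout high-fat replicate 3, against 5.96 to 6.89 in the other 10 livers. The sinusoidal endothelial markers averaged 5.82 to 5.90 in these 2 livers and knockout high-fat replicate 2, against 6.38 to 6.89 elsewhere. Of 65 measured markers of 11 cell types, 0 passed limma's adjusted p of 0.05 for diet, and 7 had an unadjusted p under 0.05. Over all probe sets 1.5% passed, so 0 of 65 says little about the mix of cells. The share of all probe sets with an unadjusted p under 0.05 for diet is not given here. The excess of actin's 3' over its 5' probe signal, which grows as RNA degrades, was 1.41 to 1.64 in high-fat and 1.26 to 1.85 in low-fat livers. Array medians lay between 3.94 and 4.0.

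In mouse liver, fat feeding is known best for its effect on lipid enzymes: synthesis genes are controlled by the sterol-responsive factor SREBP and oxidation genes by the fatty acid sensor PPAR-alpha. The 8 genes have other roles. Cox6b2 codes for the testis form of a subunit of cytochrome c oxidase, the last enzyme of the respiratory chain. Treh codes for trehalase, which splits the sugar trehalose into glucose and is best known from the brush border of intestine and kidney. Nt5e codes for CD73, the surface enzyme that turns AMP into adenosine. Rad51b codes for a protein that works in the repair of DNA breaks by homologous recombination. Pdzrn3 codes for a ubiquitin ligase with PDZ domains, known from muscle and vessels. Reck codes for a membrane-anchored inhibitor of matrix metalloproteinases that is also a Wnt co-receptor. Rnd2 codes for a small GTP-binding protein known from migrating neurons. Kcnh3 codes for a voltage-gated potassium channel known mostly from brain.

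Promoter sequence was taken from RefSeq (build GRCm38.p6) for 6 of the 8 genes, with a window of 250 bases before the start that its promoter table gives. Those of 3 genes are printed, 5' to 3' along the gene, because Cox6b2 and Treh were higher and Reck lower on the high-fat diet, so that motifs of the lipid-responsive factors can be looked for on both sides. Capitals mark matches on either strand to the CCAAT box CCAAT, the GC box GGGCGG and the nuclear receptor half-site AGGTCA.
Cox6b2, chr7:4753095-4753344, minus strand: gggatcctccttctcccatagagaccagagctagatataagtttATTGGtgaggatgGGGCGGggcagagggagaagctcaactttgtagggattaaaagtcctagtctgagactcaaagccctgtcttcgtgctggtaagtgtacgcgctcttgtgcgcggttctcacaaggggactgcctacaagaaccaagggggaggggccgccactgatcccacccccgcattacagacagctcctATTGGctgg
Treh, chr9:44672983-44673232, plus strand: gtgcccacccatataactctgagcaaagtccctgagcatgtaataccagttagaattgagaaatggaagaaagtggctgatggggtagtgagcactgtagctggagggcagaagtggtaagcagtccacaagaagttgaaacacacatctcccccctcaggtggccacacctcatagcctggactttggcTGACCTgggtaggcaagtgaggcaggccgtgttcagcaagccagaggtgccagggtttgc
Reck, chr4:43875280-43875529, plus strand: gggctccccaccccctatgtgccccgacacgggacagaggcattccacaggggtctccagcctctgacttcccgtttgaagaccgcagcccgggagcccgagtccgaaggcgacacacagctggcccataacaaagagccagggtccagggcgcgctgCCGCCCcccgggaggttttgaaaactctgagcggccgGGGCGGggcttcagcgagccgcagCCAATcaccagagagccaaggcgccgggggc
Cox6b2 holds 2 CCAAT boxes and 1 GC box, Reck holds 1 CCAAT box and 2 GC boxes, and Treh holds 1 half-site. Of the windows not printed, Nt5e holds 4 GC boxes, Rad51b 1 CCAAT box, and Pdzrn3 1 CCAAT box and 2 GC boxes. Of all 32851 promoter windows of this length, 33.8% hold the CCAAT box, 32.7% the GC box and 14% the half-site. Only exact matches were sought, so sites that differ in a base or lie outside the window would not be seen. For a motif that is rare over all windows, absence from 6 of them says little. Neither the sterol regulatory element TCACNCCAC, present in 1.05% of all windows, nor the full peroxisome proliferator response element, a direct repeat of the half-site with a 1-base spacer present in 0.0335%, was found in the 6 windows. Their GC content was 42.8% for Rad51b, 53.2% for Treh, 54.8% for Cox6b2, 68.4% for Reck, 69.2% for Pdzrn3 and 72.0% for Nt5e, against a median of 52.4% over all windows.

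In every one of the 8 genes, the brightest probe set had all 6 high-fat livers on one side of all 6 low-fat livers. Of all probe sets, 0.831% separated the diets with the high-fat livers higher and 0.813% with them lower. Limma's adjusted p for the diet difference averaged over genotypes was under 0.05 for 9 of the 13 probe sets, where 434 of 28898, or 1.5%, passed. In knockout livers alone 0.789% of all probe sets passed, with 7 of the 8 brightest among them, and in wild-type livers alone 0.0865%, with 6 of the 8. Kcnh3 missed in knockout livers (limma adjusted p = 0.0771). Pdzrn3 (limma adjusted p = 0.158) and Rad51b (limma adjusted p = 0.3825) missed in wild-type livers. Leaving out 1 wild-type array cut the 6 to between 2 and 4: 2 (Cox6b2 and Rnd2) without high-fat replicate 2 or low-fat replicate 1, 3 without high-fat replicate 1 or low-fat replicate 2, and 4 without replicate 3 of either diet. Treh missed the threshold in each of these 6 refits (limma adjusted p 0.062 to 0.18). Leaving out 1 knockout array gave 6 to 8 of the 8. The genes were picked for these differences, so nothing is read from the counts. The size of the averaged difference ran from 1.10 to 1.69 on the log2 scale for the 5 higher genes and from -1.28 to -0.79 for the 3 lower ones, beside a median of 0.00 and a median size of 0.07 over all probe sets.

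**Figure D1:**
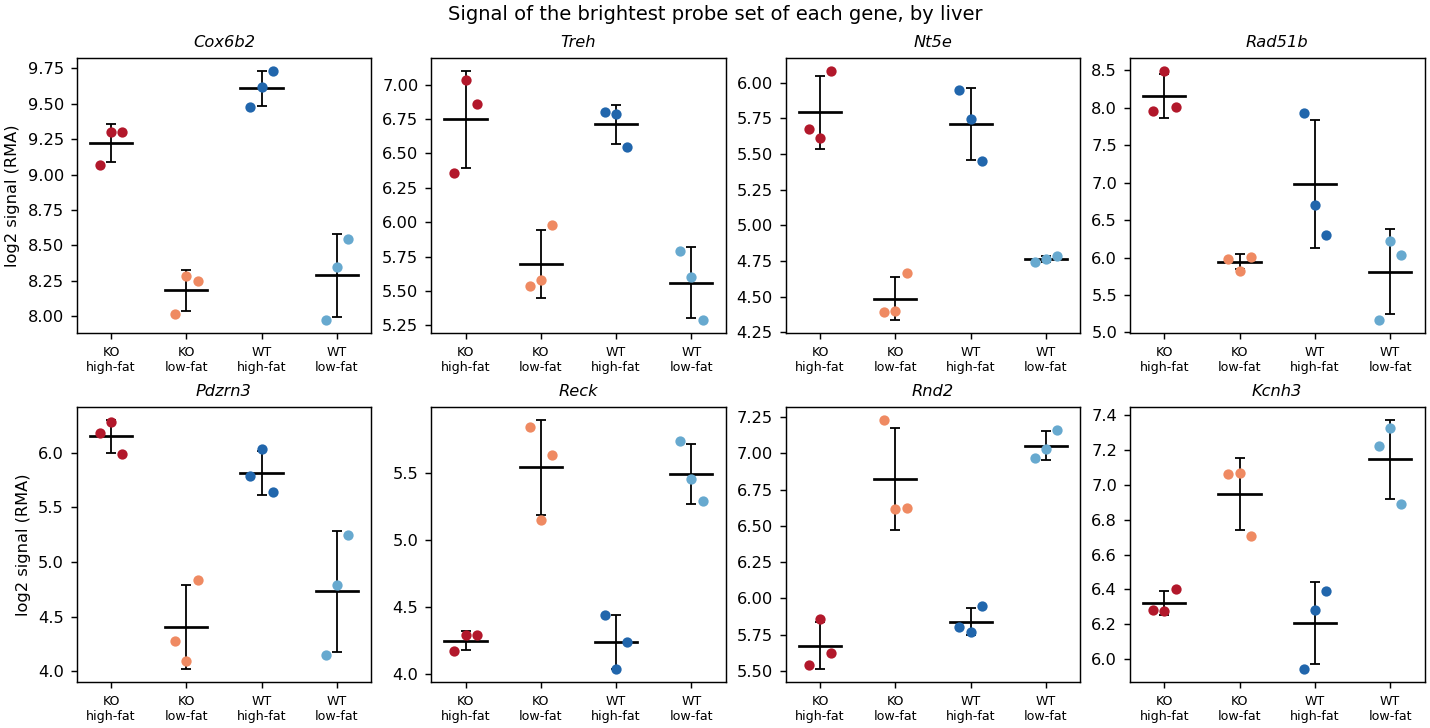
Log2 signal of the brightest probe set of each gene in each of the 12 livers, by group on the x axis (KO, Pml knockout; WT, wild type). Points are livers, lines are means and bars are SD (n = 3). The high-fat livers lie above the low-fat livers for Cox6b2, Treh, Nt5e, Rad51b and Pdzrn3 and below them for Reck, Rnd2 and Kcnh3, with Rad51b the most scattered.

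Among the genes that were higher, Cox6b2 (chr7:4751792-4753094, GRCm38.p6, as for the other genes) had the brightest and most even signal. Its log2 signals were 9.07, 9.30 and 9.30 in knockout high-fat livers, against 8.02, 8.28 and 8.25 in knockout low-fat livers. In wild-type livers they were 9.48, 9.62 and 9.73 on the high-fat diet, against 7.97, 8.35 and 8.54 on the low-fat diet. All high-fat livers were high, with a gap of 0.53 to the highest low-fat liver, and the wild-type high-fat livers lay above the knockout high-fat livers. The averaged difference was 1.18 (SE 0.0954), or 2.27-fold, and was 1.04 in knockout and 1.32 in wild-type livers (SE 0.135 each). Knockout low-fat (8.18 ± 0.143) and wild-type low-fat livers (8.29 ± 0.292, SD, n = 3 each) overlapped.

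Treh (chr9:44673233-44686305) had similar signals in both genotypes. Its signals were 6.35, 7.03 and 6.86 in knockout high-fat livers, against 5.53, 5.58 and 5.98 in knockout low-fat livers. In wild-type livers they were 6.80, 6.79 and 6.55 on the high-fat diet, against 5.79, 5.61 and 5.29 on the low-fat diet. Knockout high-fat replicate 1 was the lowest of the high-fat livers and still lay 0.37 above the highest low-fat liver. High-fat minus low-fat averaged 1.10 (SE 0.131), or 2.14-fold, from 1.05 in knockout and 1.15 in wild-type livers. On the high-fat diet the means were 6.75 ± 0.353 in knockout and 6.71 ± 0.141 in wild-type livers, and on the low-fat diet 5.70 ± 0.246 in knockout and 5.56 ± 0.255 in wild-type livers (SD, n = 3 each), closer than their spread.

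Nt5e (chr9:88327609-88372089) has 3 probe sets, and only its brightest separated the diets over both genotypes. On it the signals were 5.68, 5.61 and 6.09 in knockout high-fat livers, against 4.40, 4.40 and 4.66 in knockout low-fat livers. In wild-type livers they were 5.95, 5.74 and 5.45 on the high-fat diet, against 4.74, 4.76 and 4.79 on the low-fat diet. The 3 wild-type low-fat livers were nearly equal and lay above the 3 knockout low-fat livers. The averaged difference was 1.13 (SE 0.11), or 2.19-fold, from 1.31 in knockout and 0.95 in wild-type livers.
The second probe set (1422974_PM_at) ran from 3.75 to 4.07 in the 6 high-fat livers, median 3.90. In the 6 low-fat livers it ran from 3.47 to 3.81, median 3.61, a difference of 0.27 (SE 0.0818). Its diets overlapped in knockout livers. In wild-type livers they did not, at 3.75 to 3.92 on the high-fat and 3.56 to 3.68 on the low-fat diet. Of all probe sets, 13.6% showed no overlap in wild-type livers. The third (1459023_PM_at) ran from 3.26 to 3.44 in high-fat and from 3.15 to 3.49 in low-fat livers, a difference of 0.00 (SE 0.0704). Both means lie under 3.82, the level below which the dimmest 40% of probe sets fall.

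Rad51b (chr12:79297282-79848260) had the largest averaged difference and the widest spread. Its brighter probe set gave 7.96, 8.50 and 8.01 in knockout high-fat livers, against 5.99, 5.83 and 6.01 in knockout low-fat livers. In wild-type livers the signals were 7.94, 6.70 and 6.31 on the high-fat diet, against 5.16, 6.23 and 6.04 on the low-fat diet. Wild-type high-fat replicate 1 was the highest of its group and wild-type low-fat replicate 1 the lowest of its own, and the gap between the diets over all livers was 0.08. The averaged difference was 1.69 (SE 0.241), or 3.23-fold, from 2.21, or 4.64-fold, in knockout and 1.17, or 2.25-fold, in wild-type livers (SE 0.34 each). Without wild-type high-fat replicate 1 the wild-type difference was 0.70, a refit chosen after seeing the data. The dim second probe set (1430486_PM_at) ran from 3.23 to 3.56 on the high-fat and from 3.39 to 3.67 on the low-fat diet, a difference of -0.09 (SE 0.0675).

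Pdzrn3 (chr6:101149607-101377897) was more even on the high-fat than on the low-fat diet. Its signals were 6.18, 6.29 and 5.99 in knockout high-fat livers, against 4.27, 4.10 and 4.84 in knockout low-fat livers. In wild-type livers they were 5.78, 6.03 and 5.64 on the high-fat diet, against 4.15, 4.79 and 5.25 on the low-fat diet. The low-fat livers were low but scattered, and wild-type low-fat replicate 3, the highest, lay 0.39 under the lowest high-fat liver. High-fat minus low-fat averaged 1.42 (SE 0.171), or 2.67-fold, from 1.75 in knockout and 1.09 in wild-type livers (SE 0.242 each).

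Among the genes that were lower, Reck (chr4:43875521-43944806) had the widest gap between the diets. Its signals were 4.17, 4.29 and 4.29 in knockout high-fat livers, against 5.85, 5.15 and 5.64 in knockout low-fat livers. In wild-type livers they were 4.44, 4.03 and 4.24 on the high-fat diet, against 5.74, 5.46 and 5.29 on the low-fat diet. All high-fat livers were low, and 0.71 parted the highest of them from the lowest low-fat liver. The averaged difference was -1.28 (SE 0.125), or 2.43-fold lower, from -1.30 in knockout and -1.26 in wild-type livers. The high-fat means of 4.25 in knockout and 4.24 in wild-type livers are close to the array medians. Fewer cells of a type and less RNA per cell cannot be told apart in whole liver. Stellate cell and fibroblast markers averaged 5.71 to 6.26 on the high-fat and 5.61 to 6.19 on the low-fat diet (0 of 12 passed for diet), and their part in the Reck difference was not tested.

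Rnd2 (chr11:101468175-101471853) had nearly the same difference in both genotypes. Its signals were 5.54, 5.85 and 5.62 in knockout high-fat livers, against 7.23, 6.61 and 6.62 in knockout low-fat livers. In wild-type livers they were 5.80, 5.77 and 5.95 on the high-fat diet, against 6.96, 7.03 and 7.16 on the low-fat diet. The high-fat livers were low with little scatter, and knockout low-fat replicate 1 was the highest of all 12. High-fat minus low-fat averaged -1.18 (SE 0.112), or 2.27-fold lower, from -1.15 in knockout and -1.21 in wild-type livers. Knockout and wild-type livers overlapped on both diets.

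Kcnh3 (chr15:99224517-99242818) had the smallest difference of the 8 genes, and its 3 probe sets did not behave alike. The brightest (1459107_PM_at) gave 6.28, 6.28 and 6.40 in knockout high-fat livers, against 7.06, 7.07 and 6.71 in knockout low-fat livers. In wild-type livers it gave 5.94, 6.28 and 6.39 on the high-fat diet, against 7.22, 7.33 and 6.89 on the low-fat diet. The high-fat livers were low in both genotypes, 0.31 under the lowest low-fat liver. Its averaged difference was -0.79 (SE 0.107), or 1.72-fold lower, from -0.63 in knockout and -0.94 in wild-type livers (SE 0.152 each).
A second probe set (1445805_PM_x_at), listed for the same expressed sequence tag and marked by the maker as sharing probes with other sequences, ran from 6.11 to 6.35 in high-fat and from 6.33 to 7.0 in low-fat livers, a difference of -0.47 (SE 0.106). The third (1421619_PM_at), listed for the gene's RefSeq mRNA, ran from 4.43 to 4.89 in high-fat and from 4.44 to 4.92 in low-fat livers, a difference of -0.06 (SE 0.0934). Over both genotypes the diets overlapped over nearly the whole range on this probe set. In knockout livers alone they did not overlap, with at most 4.64 on the high-fat and at least 4.74 on the low-fat diet. The knockout difference was -0.23 (SE 0.132, limma adjusted p = 0.5634). In wild-type livers the difference was 0.11 (SE 0.132), with overlap. The lower signal described for Kcnh3 in both genotypes is thus that of the pair made from the tag. Whether that pair measures Kcnh3 transcripts was not tested.

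**Figure D2:**
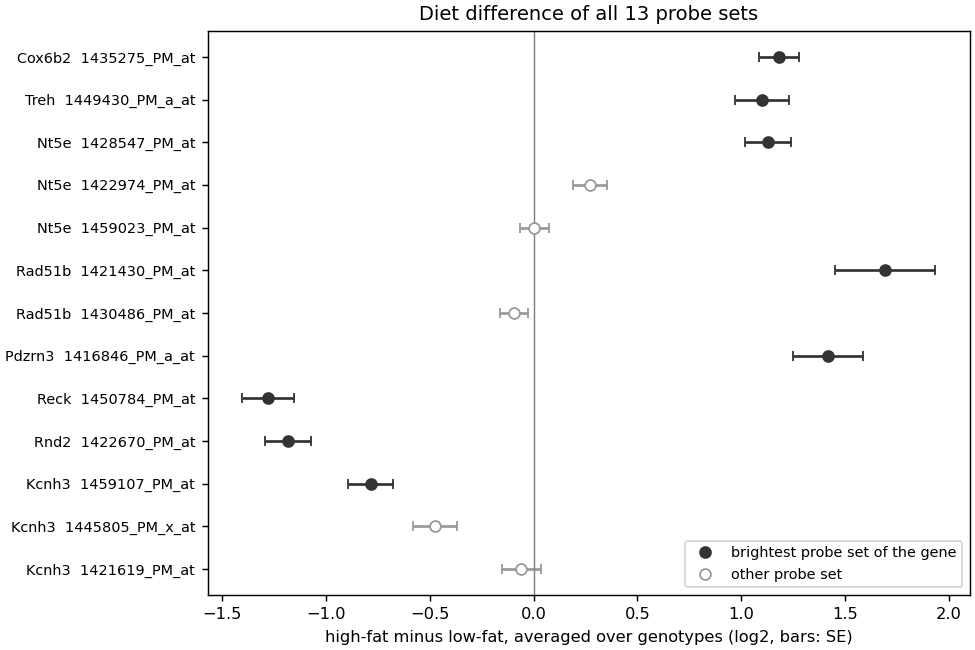
Averaged diet difference (high-fat minus low-fat, log2) of all 13 probe sets, with bars for limma's SE. Filled points are the brightest probe set of each gene; the other probe sets of Nt5e, Rad51b and Kcnh3 lie nearer to 0, between -0.47 and 0.27.

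On its brightest probe set, each of the 8 genes had a diet difference of the same sign in knockout and in wild-type livers. Signs differed on the third probe set of Kcnh3 (-0.23 in knockout and 0.11 in wild-type livers). They also differed on that of Nt5e (-0.05 in knockout and 0.05 in wild-type livers). The genes were chosen on diet differences of these same arrays, so matching signs are a description and not a replication. Within each genotype the 3 high-fat livers of each brightest probe set did not overlap the 3 low-fat livers, where 15.9% of all probe sets showed no overlap in knockout and 13.6% in wild-type livers. The knockout minus wild-type difference of these diet differences was 1.04 (SE 0.481) for Rad51b, 0.66 (SE 0.342) for Pdzrn3, 0.36 (SE 0.221) for Nt5e and 0.32 (SE 0.215) for Kcnh3. It was 0.06 (SE 0.223) for Rnd2, -0.04 (SE 0.249) for Reck, -0.10 (SE 0.262) for Treh and -0.28 (SE 0.191) for Cox6b2. Leaving out single arrays moved these values. Without one array they ran from 0.70 to 1.52 for Rad51b, 0.40 to 0.95 for Pdzrn3, 0.21 to 0.47 for Nt5e, 0.18 to 0.45 for Kcnh3 and -0.41 to -0.12 for Cox6b2, and changed sign in some refits for Rnd2, Reck and Treh. The lowest values were found without knockout high-fat replicate 3 for Nt5e, wild-type high-fat replicate 1 for Kcnh3 and wild-type low-fat replicate 3 for Pdzrn3, and the value of Cox6b2 nearest 0 without wild-type low-fat replicate 1. All share arrays with the differences that chose the genes and are a description. Over all probe sets, 0 of 28898 passed limma's adjusted p of 0.05 for this difference, and 5.62% had an unadjusted p under 0.05.

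**Figure D3:**
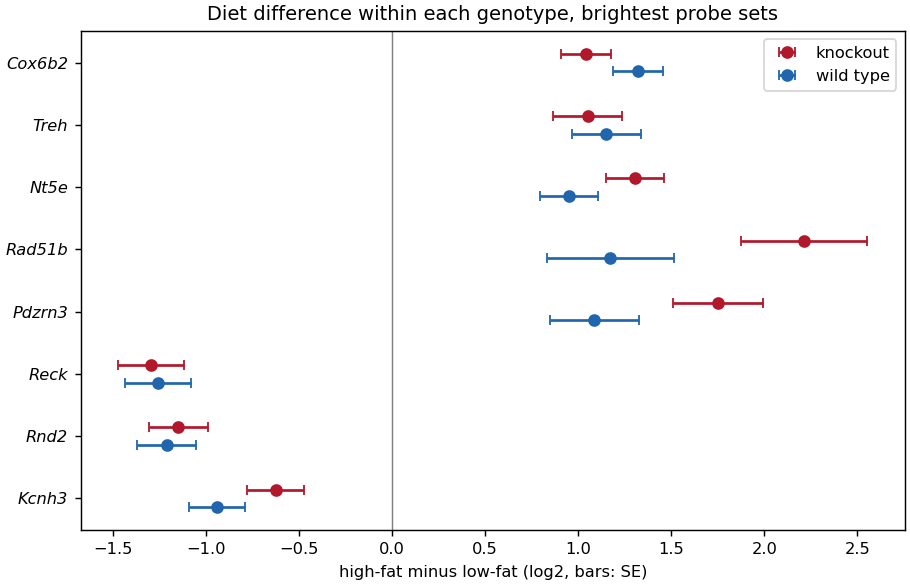
Diet difference (high-fat minus low-fat, log2) of the brightest probe sets in knockout and in wild-type livers, with bars for limma's SE. Signs match for all 8 genes; Rad51b stands at 2.21 in knockout and 1.17 in wild-type livers, and Reck at -1.30 in knockout and -1.26 in wild-type livers.

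The estimate of the genotype difference averaged over the diets is uncorrelated with those of the diet differences in this balanced design, so it was tested. Both rest on the same estimate of the spread, however. If the choice of the genes favoured probe sets with a small spread, these intervals are too narrow and the p-values too small. Of the 13 probe sets, 0 passed limma's adjusted p of 0.05, and 3 had an unadjusted p under 0.05. Over all probe sets 1, or 0.00346%, passed, that of Pml, and 6.13% had an unadjusted p under 0.05. Rad51b was 7.05 on average in knockout and 6.40 in wild-type livers, a difference of 0.65 (95% interval 0.14 to 1.17, limma adjusted p = 0.785). Cox6b2 was 8.70 in knockout and 8.95 in wild-type livers, a difference of -0.25 (-0.45 to -0.04, limma adjusted p = 0.785). The dim second probe set of Rad51b, the other one with an unadjusted p under 0.05, had 0.16 (0.01 to 0.30, limma adjusted p = 0.792).
Intervals of the other brightest probe sets took in 0. They ran from -0.44 to 0.04 for Rnd2, from -0.34 to 0.14 for Nt5e, from -0.27 to 0.19 for Kcnh3 and from -0.24 to 0.30 for Reck. That of Treh ran from -0.19 to 0.37, and that of Pdzrn3, wider than these others, from -0.36 to 0.37. In each of the 8 genes the 6 knockout livers overlapped the 6 wild-type livers, and 0.239% of all probe sets showed no such overlap.

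The choice of the genes fixes that they vary together over all arrays. Over the 12 arrays, Pearson's r was 0.69 to 0.94 for the 13 pairs of brightest probe sets that shared a direction and -0.95 to -0.76 for the 15 pairs that did not. With the 4 group means removed, the same pairs had r of -0.12 to 0.59 (median 0.15) and -0.63 to 0.38 (median -0.12). Livers of a group that were high for one gene were thus not in general high for the others. The closest pairs after this step were Cox6b2 with Reck, at -0.63, and Pdzrn3 with Kcnh3, at -0.62. Cox6b2 with Pdzrn3 had 0.59. Reck with Rnd2 had 0.94 over all arrays and 0.43 within groups. These are descriptions over 12 arrays that share the same diet groups.

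**Figure D4:**
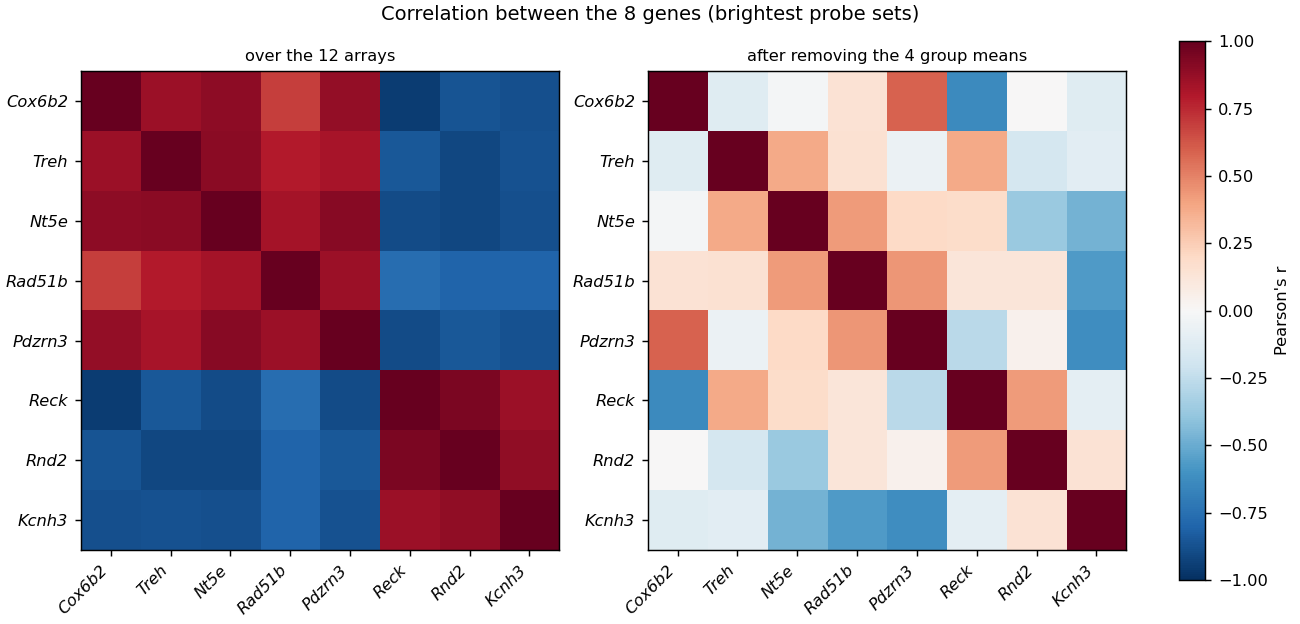
Pearson's r between the brightest probe sets of the 8 genes, over the 12 arrays (left) and after the mean of each of the 4 groups was removed (right). The left panel splits into the 5 higher and the 3 lower genes; on the right, values lie between -0.63 and 0.59.

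For each of the 8 genes, the 3 genes with the most similar signal over the 12 arrays were found by Pearson's r among all 28898 probe sets, with 1 probe set a gene. Reck was closest to Ctnnbip1, an inhibitor of beta-catenin (r = 0.99), to the fatty acid elongase Elovl6 (0.98) and to fatty acid synthase, Fasn (0.97). Within groups these values were 0.88, 0.76 and 0.69. Rnd2 was closest to Elovl6 (0.97), the acetyl-CoA carboxylase Acacb (0.94) and Reck (0.94). Kcnh3 was closest to Tecr, the last enzyme of the fatty acid elongation cycle (0.94), to Zfp983, a zinc finger gene (0.93), and to Ntrk2, a neurotrophin receptor (0.92).
Treh was closest to Eci1, an isomerase for unsaturated fatty acids in mitochondria (0.96), to the glutathione transferase Gstk1 (0.94) and to Diablo, a mitochondrial protein released in apoptosis (0.94). For Nt5e these were Them7 and Eci1 (0.96 each) and the histone gene H3c1 (0.95). For Cox6b2 they were Decr1, the mitochondrial dienoyl-CoA reductase (0.95), Slc27a2, a fatty acid transport protein (0.93), and Pebp1, a phosphatidylethanolamine-binding protein (0.93). Pdzrn3 was closest to Ndrg2 (0.97), Aldh1a1, a retinaldehyde dehydrogenase (0.96), and Slc47a1, a drug and toxin exporter (0.95). Rad51b was closest to Mpc1, a subunit of the mitochondrial pyruvate carrier (0.95), the glycosyltransferase Ugt3a1 (0.94) and the glutamate transporter Slc1a2 (0.93). Within groups, r for these neighbours of all genes but Reck was 0.36 (Cox6b2 with Pebp1) to 0.89 (Pdzrn3 with Aldh1a1 and Kcnh3 with Tecr), with 0.43 for Rnd2 with Reck, 0.46 for Rnd2 with Acacb and 0.53 for Cox6b2 with Slc27a2. The averaged diet difference of the neighbours ran from -1.86 for Fasn and Elovl6 to 0.88 for H3c1, and that of Zfp983, -0.31, missed the threshold (limma adjusted p = 0.0825). They were picked as the highest r over all genes, so r carries no test.

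Genes of the same complexes, families or pathways were read from the same fit, over lists chosen with earlier results known. Of 16 measured subunits of cytochrome c oxidase, 0 passed limma's adjusted p of 0.05 for the averaged diet difference, and the median was -0.01. Cox6b1, the widely expressed form of the subunit that Cox6b2 replaces, had 0.01 (SE 0.035), and the largest value was -0.37 (SE 0.116) for Cox7a1, a heart and muscle form. Homologous recombination genes (15 measured, median 0.02) had 0 past the threshold, with Rad51d, a paralogue of Rad51b, at 0.38 (SE 0.105). The ligases Lnx1, Lnx2 and Pdzrn4 with Musk and the Dishevelled adaptors (7 measured, median -0.10) also had 0, with Lnx2 at -0.30 (SE 0.0969). Voltage-gated potassium channels (19 measured, median -0.01) had 0 as well, the largest being Kcnh7 at -0.14 (SE 0.077). Over all probe sets, 0.844% passed upward and 0.657% downward.

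In 3 more families 4 relatives passed. Hexa, a lysosomal hexosaminidase and 1 of 13 measured glycoside hydrolases, was 8.62 to 8.95 in the 6 high-fat livers and 7.58 to 8.51 in the 6 low-fat livers. It rose by 0.69 (SE 0.123, limma adjusted p = 0.0116), and its diets did not overlap. Entpd5, a nucleoside diphosphatase and 1 of 14 measured genes of extracellular nucleotides and adenosine, was 10.26 to 10.61 in high-fat livers, against 9.64 to 10.25 in low-fat livers, and rose by 0.48 (SE 0.0934, limma adjusted p = 0.0187). Among 17 measured metalloproteinases, their inhibitors and Reck partners, Mmp14, the membrane-bound collagenase that Reck inhibits, was 5.32 to 5.58 in high-fat and 5.69 to 6.05 in low-fat livers. It fell by 0.47 (SE 0.0905, limma adjusted p = 0.0191), without overlap. Mmp12, the macrophage elastase, was dim, at 3.37 to 4.34 in high-fat livers against 3.06 to 3.49 in low-fat livers. It rose by 0.49 (SE 0.093, limma adjusted p = 0.0173) with overlap. That average came from 0.75 in knockout (limma adjusted p = 0.0153) and 0.23 in wild-type livers (limma adjusted p = 0.758). Hexa also passed only in knockout livers (limma adjusted p = 0.0422, against 0.449 in wild-type livers). Entpd5 (limma adjusted p = 0.0556 in knockout and 0.538 in wild-type livers) passed in neither genotype alone. Nor did Mmp14 (limma adjusted p = 0.2 in knockout and 0.209 in wild-type livers). Macrophage markers averaged 5.43 to 6.89 in high-fat and 4.88 to 6.60 in low-fat livers, a difference of 0.34 between the diet means. Without both livers low in these markers the Mmp12 difference was 0.53 (limma adjusted p = 0.0105). The part of macrophages in the Mmp12 difference was not tested.
The medians were 0.04 for the glycoside hydrolases, 0.02 for the adenosine genes and 0.03 for the metalloproteinase list. Without one array the threshold was missed by Entpd5 (0.43 without wild-type low-fat replicate 1, and 0.45 each when knockout high-fat replicate 2 or the first wild-type high-fat liver was left out) and by Mmp12 (0.45 without knockout high-fat replicate 2). Mmp14 missed it without knockout high-fat replicate 3 (-0.42), knockout low-fat replicate 1 (-0.43), wild-type high-fat replicate 2 (-0.45) or wild-type low-fat replicate 1 (-0.46). Averaging its probe sets also ended the call of Entpd5 (0.35, limma adjusted p = 0.0592). The adjusted p in the refits without one array was 0.0503 to 0.0609, and Hexa passed without any one array. Without both livers low in macrophage markers the limma adjusted p was 0.0941 for Mmp14 and 0.062 for Entpd5.

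**Figure D5:**
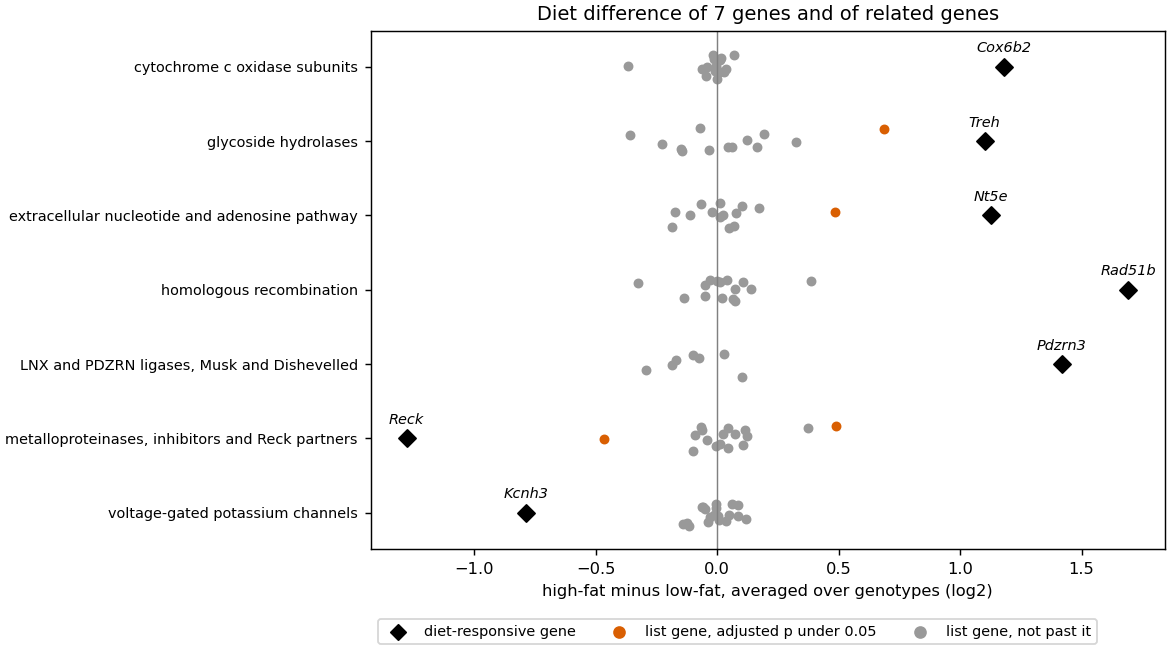
Averaged diet difference (high-fat minus low-fat, log2) of 7 of the 8 genes, all but Rnd2 (diamonds) and of the measured genes of its family or complex (dots, brightest probe set per gene), with genes past limma's adjusted p of 0.05 in orange. Relatives lie between -0.47 and 0.69, and the 7 genes, which were chosen for their difference, lie outside that range.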

How the data were processed

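The deposited log2 values, made by the authors with RMA per the submitters' processing notes (version not given in the sources used here), cover 45141 probe sets on 12 arrays. Because RMA equalises the arrays, a shift shared by all genes would not be seen, and changes of dim probe sets come out too small. Left out were 104 control probe sets, 551 with several genes and 15588 with none, which left 28898. Symbols came from the platform annotation; 28689 gene identifiers were found in RefSeq and 0 symbols changed.

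limma 3.58.1 (R 4.3.3) fitted the 4 group means over the 12 arrays, leaving 8 residual degrees of freedom; the variance followed a trend and no probe set was filtered out. The Benjamini-Hochberg correction ran over the 28898 probe sets of each comparison at 0.05, with none across the 5 comparisons. The code was tested on simulated data. The smallest exact p for 3 against 3 livers is 0.1, so no single value was tested by permutation.

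The brightest probe set, by mean over all arrays, stands for a gene. Named besides the 8 genes are the 3 genes of highest Pearson's r with each, up to 3 members of each of 8 family lists past the threshold, or the largest where none passed; 1 of these lists is not reported here. Cox6b1 was singled out after its value was seen. The genes, lists and promoter motifs were chosen with earlier results of these data known. Alternatives were another normalization, centring, filters, probe set summaries, variance models, array weights, a replicate block, a threshold of 0.10 and arrays left out.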

Additional observations from a re-analysis of the deposited data

How the results depend on the processing

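The averaged diet difference of the 8 genes kept its sign under all alternatives run (23 for Reck, which the 60% filter on dim probe sets leaves out, and 24 for the others). Its range without one array was 1.10 to 1.25 for Cox6b2, 1.03 to 1.20 for Treh, 1.06 to 1.19 for Nt5e, 1.45 to 1.86 for Rad51b, 1.27 to 1.55 for Pdzrn3, -1.38 to -1.20 for Reck, -1.23 to -1.08 for Rnd2 and -0.85 to -0.72 for Kcnh3. Averaging the probe sets of a gene moved 3 of them by more than the spread between livers: Nt5e to 0.47, Rad51b to 0.80 and Kcnh3 to -0.44. Without both arrays low in macrophage markers, the differences were 1.19 for Cox6b2, 1.04 for Treh, 1.03 for Nt5e, 1.70 for Rad51b, 1.38 for Pdzrn3, -1.39 for Reck, -1.22 for Rnd2 and -0.77 for Kcnh3. The genotype difference of the 8 genes missed the threshold under every alternative run, and its sign turned in 7 of 24 for Pdzrn3, 3 of 24 for Kcnh3 and 3 of 23 for Reck.

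Counts over all probe sets depended more on the setting, and the cause was not tested beyond the fewer arrays or looser threshold themselves. For the averaged diet effect 434 passed, 216 to 489 without one array (lowest without wild-type low-fat replicate 1; 7 arrays moved it by over 1.5 times), 211 without both arrays low in macrophage markers, 287 with probe sets averaged by gene and 687 at an adjusted p of 0.10. For the diet effect in knockout livers 228 passed, 73 to 394 without one array (without knockout high-fat replicate 2 and knockout low-fat replicate 3; all 6 knockout arrays moved it so), 74 without both arrays low in macrophage markers, 365 with array weights, 373 with the dimmest 60% left out and 460 at 0.10. In wild-type livers 25 passed, 13 to 35 without one array (13 without wild-type low-fat replicate 1, 15 without wild-type high-fat replicate 2), 15 with probe sets averaged, 41 at 0.10 and 71 with array weights. For the genotype effect 1 passed, 1 to 3 without one array, 3 with array weights, 2 with the brightest probe set per gene and the dimmest 40% of genes left out, and 0 with the dimmest 60% of probe sets left out, where Pml is no longer tested. For the difference between the diet effects 0 passed, and 0 to 1 without one array. Extracts with the same number were not treated as pairs, since the labels do not say that they belong together. A residual r over 0.1 was found for 7 of 18 pairs of the same number (range -0.11 to 0.32, median 0.05). It was found for 5 of 36 pairs of other numbers (-0.38 to 0.14, median -0.01), and 7 of 12 arrays correlated best with their own number. Whether the number marks a batch was not tested. With a replicate block, 441, 216, 29, 1 and 0 probe sets passed for the averaged diet effect, knockout diet effect, wild-type diet effect, genotype effect and difference between diet effects. Signals near the array medians limit what can be seen for the dim probe sets of Nt5e and Rad51b.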
